A study of Mus musculus with 6 samples.

Results

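p53, encoded by Trp53, and 9 of its well-known direct target genes were followed in whole kidneys of mice with an induced deletion of Pkd1, the gene for polycystin-1. The 10 members were taken by symbol: Trp53, Mdm2, Eda2r, Fas, Ccng1, Bax, Phlda3, Zmat3, Sesn2 and Trp53inp1. All 10 matched 1 identifier each among 56923 in the count tables, and all 10 passed the filter on low counts that left 18273 genes. Of them 5 were higher in Pkd1 KO kidneys, Eda2r, Fas, Trp53inp1, Ccng1 and Bax, and 2 were lower, Sesn2 and Trp53 itself. Mdm2, Phlda3 and Zmat3 did not pass the test. Over all tested genes 46.9% were called at an adjusted p below 0.05, 22.7% higher and 24.2% lower, so the members' count is read against a background of that size. Once each library's dependence on base composition and length was taken out, Eda2r, Bax and Trp53inp1 were still called higher and no member lower.

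RNA sequencing covered 6 kidneys of male mice. The 3 Pkd1 KO kidneys came from mice of the genotype Pkd1flox/flox.Pax8rtTA.Tet-O-Cre. In these a doxycycline-dependent activator driven by Pax8, a gene of tubule epithelium, switches on Cre recombinase. The 3 control kidneys came from Pkd1flox/flox.Tet-O-Cre mice, with the same floxed alleles and Cre transgene but no activator. Mice of both groups drank doxycycline (2 mg/ml, 5% sucrose) from postnatal day 28 to day 42, and kidneys were taken at 10 weeks. The deletion is aimed at tubule cells, and a whole kidney mixes these with interstitial, vascular and immune cells.

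p53 is a transcription factor that is kept low by constant degradation and accumulates when DNA is damaged or the cell is otherwise stressed. It then switches on genes that stop the cell cycle, repair DNA or kill the cell, together with Mdm2, whose product returns p53 to degradation. Its activity is set mostly at the protein, so Trp53 messenger RNA is not a measure of it, and in kidney tubules the pathway is known from acute injury and repair.

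Gene counts per library were 51966474 to 62983791 in the Pkd1 KO group and 45020173 to 55548316 in the controls. Pkd1 had 8.77, 9.003 and 10.01 CPM (read counts scaled to a common library size) in the Pkd1 KO kidneys, against 30.01, 46.4 and 23.6 CPM in the controls. Library sizes were corrected for composition. The 3 Pkd1 KO libraries came from 1 sequencing project and the controls from another, and for every comparison the effects of genotype and of project cannot be told apart. The labels name separate kidneys without more on the animals, so p-values measure the spread between these samples. The groups did not overlap for 7 members and for 61.2% of all tested genes.

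Markers of the cell types in a kidney also differed in part between the groups, and none was at 0 in any library. Of 11 tubule markers 9 fell, beside 24.2% of all tested genes, with summed levels of 5363 to 5970 CPM in Pkd1 KO kidneys and 9167 to 16142 CPM in controls. In edgeR's test with the offsets described below 7 were called lower and 1 higher, beside 17.4% and 17.1% of all genes. The latter was Pax8 (0.87, adjusted p = 0.00656), named after its values were seen. Of 10 leukocyte markers 3 rose and 1 fell, beside 22.7% and 24.2% of all tested genes. The same shares stand beside the fibroblast, endothelial and podocyte counts that follow. Of 7 fibroblast markers 2 were called higher and 3 lower, a balance that turned to 3 and 2 with upper-quartile scaling and to 3 and 1 with the offsets for base composition and length described below, with sums of 268 to 377 CPM in Pkd1 KO kidneys and 277 to 332 CPM in controls. Of 5 endothelial markers 1 rose and 4 fell (249 to 252 CPM in Pkd1 KO kidneys, 289 to 336 CPM in controls), but with those offsets 0 were called higher and 2 lower in edgeR's test, and the same counts were found without KO 1, KO 2 or KO 3. Without control 1 it was 0 and 3. Of 4 podocyte markers 3 fell (140 to 165 CPM in Pkd1 KO kidneys, 183 to 318 CPM in controls), against 1 with the offsets, 2 without KO 2 and 0 without control 1, KO 1 or KO 3, where 2, 3 and 2 were lower at an unadjusted p below 0.05. DESeq2 called 4 lower. Their part in the members' differences was not tested. In these bulk samples fewer cells of a type and less RNA per cell cannot be told apart.

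Trp53 was lower in Pkd1 KO kidneys. It had 17.7, 17.8 and 16.95 CPM in them, against 23.8, 26.7 and 20.3 CPM in the controls. All 3 Pkd1 KO values lay below all 3 control values, and they were closer together. The log2 fold change, Pkd1 KO minus control, was −0.43 ± 0.15 (SE, n = 3 each), 0.741-fold with a 95% interval of 0.588 to 0.934 (adjusted p = 0.0388, edgeR's quasi-likelihood test). The call was weak. In edgeR's test it was lost when any library but control 3 was left out, with an adjusted p of 0.0925 without control 1, 0.0525 without control 2, and 0.100, 0.109 and 0.135 without KO 1, KO 2 and KO 3. It was also lost with upper-quartile scaling (−0.27, adjusted p = 0.138) and with no filter on low counts (adjusted p = 0.0802), and the adjusted p over the 15 alternatives ran from 0.00517 to 0.566. Upper-quartile scaling moved the median of all tested genes to 0.188, against 0.026 here, and it called 5274 genes higher and 3447 lower, against 4148 and 4431. Among the members it called 5 higher and 1 lower.

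Fold changes in these libraries followed base composition and exon length. In the lowest of 8 equal classes of GC content the median log2 fold change of tested genes was 0.56, and in the highest it was −0.60. In 8 such classes of exon length it was 0.65 in the shortest and −0.51 in the longest. A second fit therefore used offsets that take out how a library departs from the mean along GC content and transcript length. It tested 17785 genes and called 34.5% of them, 17.1% higher and 17.4% lower. It would also remove a true change shared by genes of one composition or length. The deleted gene itself lost its call and most of its fold there, Pkd1 being at −1.85 ± 0.24 without the offsets (adjusted p = 0.00234) and at −0.34 ± 0.13 with them (adjusted p = 0.0643). In that fit Trp53, at 53.3% GC, stood at −0.11 ± 0.12 (adjusted p = 0.506). Wrap53, which starts next to Trp53 on the opposite strand and encodes a telomerase-associated protein, was named after its values were seen. It fell too, at −0.41 ± 0.14 (adjusted p = 0.0428), and was at −0.34 with the offsets (adjusted p = 0.0531). Its call was lost in edgeR's test without control 1 (adjusted p = 0.0907) and without KO 1, KO 2 and KO 3 (0.0866, 0.162 and 0.112). It was also lost with upper-quartile scaling (adjusted p = 0.192), no filter on low counts (0.124) and a replicate block (0.0880). No exon of another gene overlapped Trp53 in GENCODE M21.

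**Figure D1:**
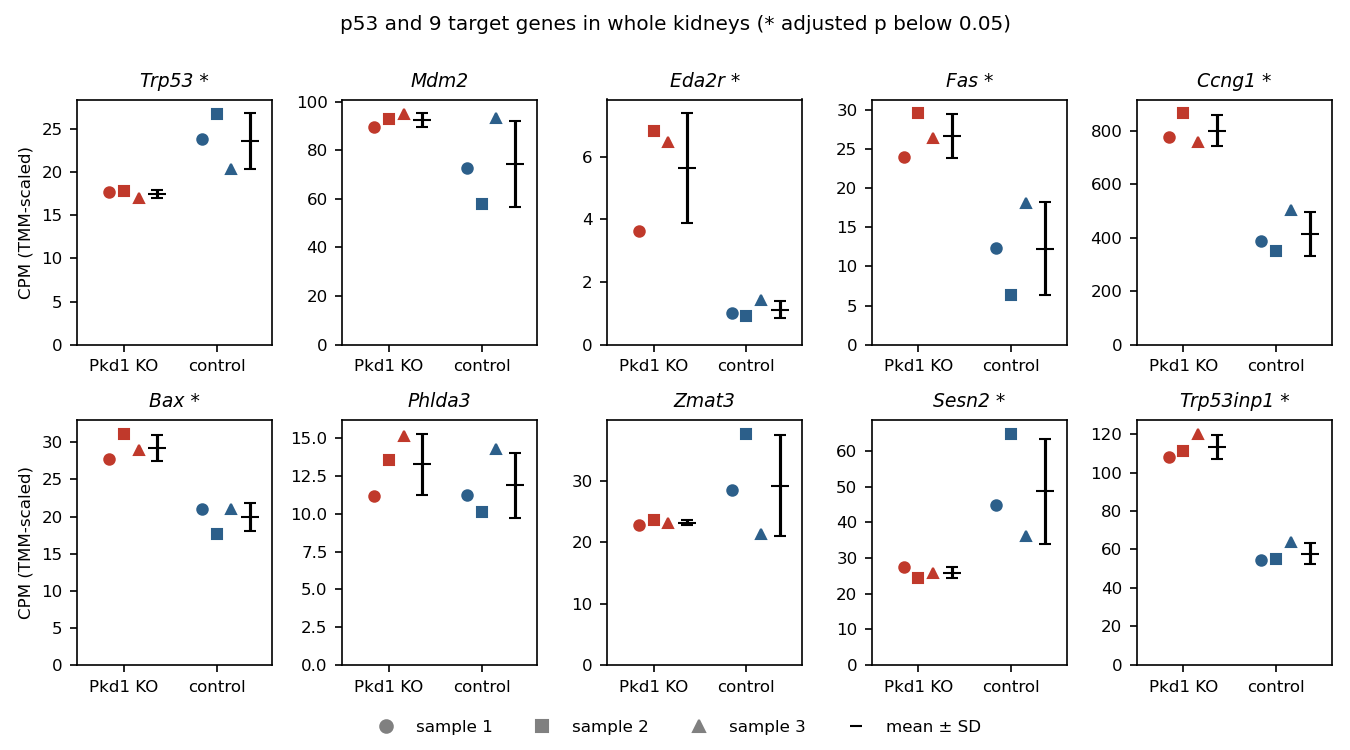
CPM of p53 and 9 target genes in each kidney, Pkd1 KO in red and control in blue, with marker shapes for the sample number and black bars for the mean ± SD (n = 3 each). Eda2r, Fas, Ccng1, Bax and Trp53inp1 lie higher in all 3 Pkd1 KO kidneys, Trp53 and Sesn2 lower, and the 3 genes without an asterisk overlap between groups.

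The receptor gene Eda2r changed most. It encodes a receptor of the tumour necrosis factor family for the ectodysplasin form EDA-A2. It had 3.64, 6.82 and 6.47 CPM in Pkd1 KO kidneys, against 1.01, 0.917 and 1.44 CPM in controls. Every Pkd1 KO kidney lay above every control, and KO 1 was the lowest of its group. Its log2 fold change was 2.34 ± 0.30, or 5.06-fold (95% interval 3.14 to 8.14, adjusted p = 0.00234), and 1.94 ± 0.27 with the offsets (adjusted p = 0.00209). Its call held in all 15 alternatives, with values between 1.91 and 2.57. Eda2r was the least abundant member, with 180, 416 and 410 reads in the Pkd1 KO libraries and 52, 53 and 64 in the controls.

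Fas, the receptor through which Fas ligand starts apoptosis, had 24.0, 29.6 and 26.4 CPM in Pkd1 KO kidneys, against 12.3, 6.36 and 18.2 CPM in controls. The groups did not overlap, but the controls spread widely, control 2 being the lowest and control 3 the highest. The log2 fold change was 1.12 ± 0.32 (adjusted p = 0.0194). In edgeR's test the call was lost without control 1 (1.10, adjusted p = 0.0663) and without KO 2 (1.04, adjusted p = 0.0724), and it stood at 0.78 without control 2 and 1.46 without control 3. With the offsets Fas was at 0.49 ± 0.23 (adjusted p = 0.126). Leukocytes also express Fas, and the summed level of 10 leukocyte markers was 155 to 262 CPM in Pkd1 KO kidneys and 90.5 to 111 CPM in controls. Lyz2, a lysozyme gene of myeloid cells singled out after its values were seen, carried that difference, with 97.5, 189 and 165 CPM in Pkd1 KO kidneys and 26.4, 12.7 and 30.2 CPM in controls. The other 9 markers summed to 57.4, 73.4 and 65.5 CPM in Pkd1 KO kidneys and 84.7, 77.8 and 63.9 CPM in controls, so these sums overlapped. Single markers among these 9, also named after their values were seen, moved in both directions. In edgeR's test Ptprc was called higher (0.96, adjusted p = 0.00595; offsets 1.03), as was Nkg7 (adjusted p = 0.00555). Csf1r was called lower (−1.01, adjusted p = 0.00297; offsets −0.33). The part of leukocytes in the Fas value was not tested.

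Bax encodes the BCL2-family protein that permeabilises the outer mitochondrial membrane. It had 27.7, 31.2 and 28.9 CPM in Pkd1 KO kidneys, against 21.02, 17.7 and 21.02 CPM in controls. The groups were apart with little spread in either. The difference was 0.56 ± 0.14 on the log2 scale (adjusted p = 0.0116), lost only without KO 2 (0.51, adjusted p = 0.0615). Bax is the most GC-rich member, at 63.5% GC, and its value was larger with the offsets, 0.94 ± 0.13 (adjusted p = 0.00221). Exons of the gene model Gm45808 on the same strand cover 12.2% of its exonic bases (GENCODE M21), so its count is uncertain to the extent that reads are shared.

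Among genes that feed back on p53, Mdm2, the ubiquitin ligase that degrades it, did not pass the test. It had 89.6, 92.9 and 94.99 CPM in Pkd1 KO kidneys, against 72.7, 57.9 and 93.1 CPM in controls. Control 3 lay within the Pkd1 KO range and the other 2 controls below it. On the log2 scale the difference was 0.31 ± 0.18, with a 95% interval of −0.094 to 0.72 (adjusted p = 0.180). Without control 3 it was called (0.45, adjusted p = 0.0220), and without control 2 it was 0.13 (adjusted p = 0.459). With the offsets it stood at 0.24 ± 0.16 (adjusted p = 0.269).

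Ccng1 encodes cyclin G1, which guides protein phosphatase 2A to the Mdm2 protein, and was the most abundant member on the scale of CPM per kilobase of exon. It had 779, 866 and 759.9 CPM in Pkd1 KO kidneys, against 387, 349 and 505 CPM in controls. All Pkd1 KO values lay above all control values. This was a log2 fold change of 0.95 ± 0.18, or 1.94-fold (adjusted p = 0.00413). Its call held without each library in turn, at 0.82 to 1.07, and was lost with the offsets, at 0.29 ± 0.13 (adjusted p = 0.105).

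Trp53inp1, whose product promotes p53 activity in the nucleus and autophagy in the cytoplasm, had 108, 111 and 120.2 CPM in Pkd1 KO kidneys, against 54.7, 54.96 and 63.9 CPM in controls. All Pkd1 KO values lay above all control values. The log2 fold change was 0.97 ± 0.13, or 1.96-fold (adjusted p = 0.00245), with the smallest SE of the 10 members. The offsets brought the value to 0.46 ± 0.11, still called (adjusted p = 0.0115). Its call held in all 15 alternatives.

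The stress protein gene Sesn2 moved the other way. Sestrin 2 senses leucine and restrains the growth kinase complex mTORC1, and its gene also responds to the stress factor ATF4. It had 27.5, 24.4 and 25.7 CPM in Pkd1 KO kidneys, against 44.98, 64.9 and 36.2 CPM in controls. All Pkd1 KO values lay below all control values. The log2 fold change was −0.91 ± 0.21, or 0.531-fold (adjusted p = 0.00823). The call held without each library in turn (−1.14 to −0.69) and was lost with the offsets (−0.26 ± 0.14, adjusted p = 0.191).

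Phlda3 and Zmat3 overlapped between the groups. Phlda3, which blocks recruitment of the kinase AKT to membranes, had 11.2, 13.5 and 15.2 CPM in Pkd1 KO kidneys, against 11.3, 10.1 and 14.3 CPM in controls (0.16 ± 0.19, adjusted p = 0.493). Its value was 0.48 ± 0.18 with the offsets (adjusted p = 0.0616), and 0.029 to 0.27 with 1 library left out. Zmat3, an RNA-binding zinc finger protein, had 22.8, 23.6 and 23.1 CPM in Pkd1 KO kidneys, against 28.6, 37.7 and 21.3 CPM in controls (−0.33 ± 0.20, adjusted p = 0.197). Its sign turned with the offsets (0.25 ± 0.11, adjusted p = 0.119), and without control 3 it was called lower (−0.56, adjusted p = 0.0104). The 95% intervals of the fold, 0.835 to 1.501 for Phlda3 and 0.579 to 1.09 for Zmat3, leave room for changes in either direction.

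Promoter sequences are shown for 4 members, 2 that rose and hold a match to the p53 response-element decamer (Ccng1 and Bax), the one that rose most (Eda2r) and Trp53. They run from 250 bases before to 50 after the start of the gene and come from RefSeq on GRCm38.p6, an older build than the GRCm39 of the counts. The table matched 8 of the 10 members, without Zmat3 and Trp53inp1. Capitals mark the match. The coordinates are chr11:40755237-40755536 (minus strand) for Ccng1, chr7:45466849-45467148 (minus strand) for Bax, chrX:97377160-97377459 (minus strand) for Eda2r and chr11:69580109-69580408 (plus strand) for Trp53.
Ccng1: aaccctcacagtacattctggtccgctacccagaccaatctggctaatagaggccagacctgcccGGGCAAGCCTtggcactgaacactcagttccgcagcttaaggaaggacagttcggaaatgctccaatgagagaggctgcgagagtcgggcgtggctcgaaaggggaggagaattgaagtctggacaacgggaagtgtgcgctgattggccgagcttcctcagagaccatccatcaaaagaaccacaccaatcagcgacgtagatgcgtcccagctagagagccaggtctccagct
Bax: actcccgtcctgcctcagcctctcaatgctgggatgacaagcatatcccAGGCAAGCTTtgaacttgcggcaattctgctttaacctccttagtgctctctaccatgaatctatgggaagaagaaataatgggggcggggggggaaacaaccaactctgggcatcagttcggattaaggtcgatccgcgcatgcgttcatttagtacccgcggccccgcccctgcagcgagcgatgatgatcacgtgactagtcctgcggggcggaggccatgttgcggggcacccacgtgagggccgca
Eda2r: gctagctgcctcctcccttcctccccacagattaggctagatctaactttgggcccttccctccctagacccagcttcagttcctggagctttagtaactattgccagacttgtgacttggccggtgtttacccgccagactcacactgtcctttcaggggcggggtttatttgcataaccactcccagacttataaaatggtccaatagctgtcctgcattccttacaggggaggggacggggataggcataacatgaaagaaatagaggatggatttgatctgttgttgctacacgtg
Trp53: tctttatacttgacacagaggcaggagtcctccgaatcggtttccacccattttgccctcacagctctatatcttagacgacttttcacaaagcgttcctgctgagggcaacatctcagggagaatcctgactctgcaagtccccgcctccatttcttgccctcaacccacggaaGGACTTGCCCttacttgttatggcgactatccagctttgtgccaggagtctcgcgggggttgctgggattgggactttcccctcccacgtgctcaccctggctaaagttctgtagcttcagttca

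The decamer consensus is palindromic, so both strands were searched at once. It was found once each in Trp53 (GGACTTGCCC, from base −75), Mdm2 (GAACTTGCCT, from base −186), Ccng1 (GGGCAAGCCT, from base −185) and Bax (AGGCAAGCTT, from base −201), 4 of 8 promoters, and in 8.36% of all 32851 promoters. Positions count from the gene start. Of these 4 genes 2 were called higher, 1 lower and 1 not called. A pair of decamers 0 to 13 bases apart, the arrangement of a full response element, was in none of the 8 and in 0.0731% of all promoters. A match is a run of letters and not a shown binding site, and sites in introns lie outside this window.

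**Figure D2:**
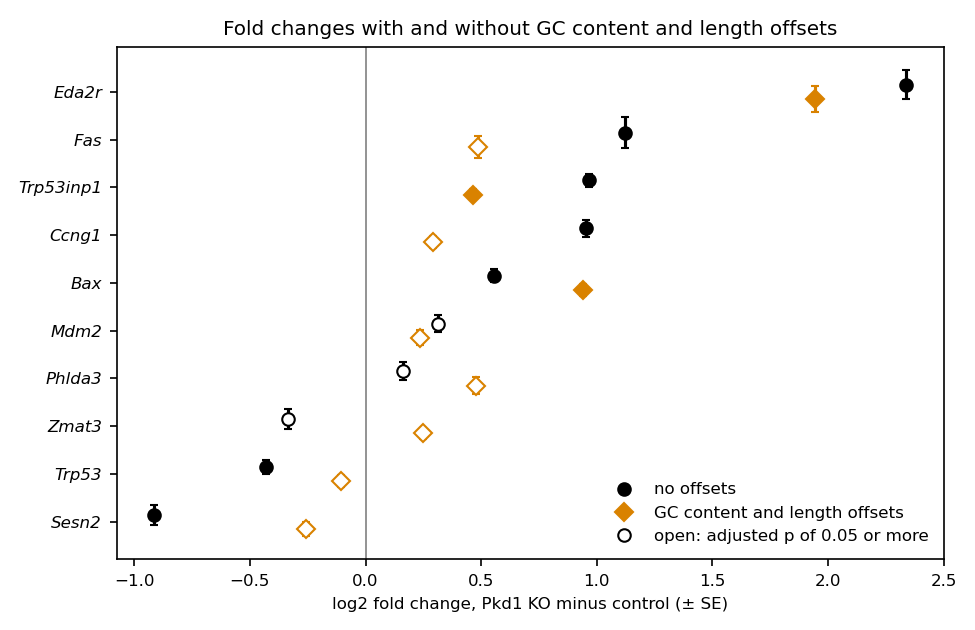
Log2 fold change ± SE of each member, Pkd1 KO minus control, without offsets (black circles) and with GC content and length offsets (orange diamonds), filled where the adjusted p was below 0.05. Eda2r, Trp53inp1 and Bax are filled in both, and Fas, Ccng1, Sesn2 and Trp53 only without offsets.

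With the offsets 3 members were called higher, Eda2r, Bax and Trp53inp1, against 17.1% of all genes. In edgeR's test 0 were called lower, against 17.4% of all genes. The same 3 were called higher in both fits, and 24.7% of all genes were called the same way in both. At an unadjusted p below 0.05 the offset fit had 5 members higher and 0 lower, beside 4082 and 4118 of all 17785 genes. DESeq2, without offsets, called 5 members higher and 2 lower. The median log2 fold change of the 10 members was 0.43 without and 0.38 with the offsets, beside 0.026 and 0.00077 for all tested genes. By composition Ccng1 (40.8% GC) lay in the lowest of the 8 GC classes, Fas (43.9% GC) in the next, and Sesn2 (58.7% GC) in the highest. Eda2r (40.9% GC) and Trp53inp1 (38.8% GC) were in the same class as Ccng1, and Bax and Phlda3 (62.6% GC) in that of Sesn2. By exon length Zmat3 lay in the longest of the 8 classes (median −0.51). Fas, Bax and Phlda3 lay in the class next to the shortest (median 0.37).

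Control 1 was sequenced in 2 runs. In run 2 relative to run 1 Ccng1 differed by −11.5% (exact 95% interval −14.5% to −8.36%), Fas by −18.2% (−33.5% to −0.136%) and Trp53inp1 by −9.75% (−17.8% to −1.09%). For the other 7 members the interval included 0, and the difference ran from 0.796% for Mdm2 to 13.3% for Bax (−1.66% to 30.3%). Over tested genes the median log2 ratio of run 2 over run 1 went from −0.12 in the lowest GC class to 0.12 in the highest. Differences between runs of 1 sample do not bound those between samples or projects. The intervals cover counting error only, since reads without molecular identifiers are not independent molecules.

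The controls carried most of the spread. On the log2 CPM scale the SD was larger among controls than among Pkd1 KO kidneys for 9 of 10 members, all but Eda2r, and for 76.3% of all tested genes. Control 3 was the control nearest to the Pkd1 KO mean for 10 of 10 members, and for 61.2% of all tested genes. Control 2 was the lowest or highest control for 9 of 10 members, and for 79.7% of all tested genes.

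**Figure D3:**
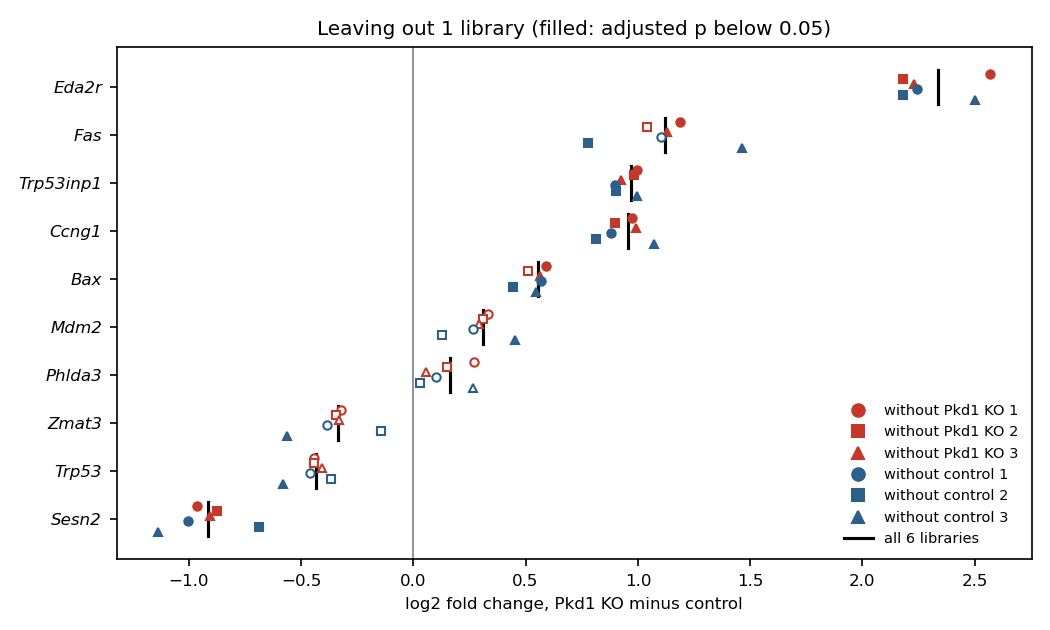
Log2 fold change of each member, Pkd1 KO minus control, with 1 library left out (red, a Pkd1 KO library; blue, a control; filled where the adjusted p was below 0.05) and with all 6 libraries (black bars). Leaving out control 2 or control 3 gives the furthest value for every member but Eda2r and Trp53inp1, and Eda2r, Ccng1, Trp53inp1 and Sesn2 stay filled throughout.

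Per kilobase of exon, Ccng1 stood far above the rest, at 228 ± 16.1 CPM per kilobase in Pkd1 KO kidneys and 118 ± 23.2 in controls (SD, n = 3 each). In Pkd1 KO kidneys Bax (18.6 ± 1.11), Mdm2 (18.2 ± 0.535) and Trp53inp1 (17.5 ± 0.970) followed with overlapping ranges, then Fas (12.9 ± 1.35). Phlda3 (8.53 ± 1.30) and Sesn2 (7.44 ± 0.449) overlapped, and Trp53 (4.33 ± 0.117), Zmat3 (2.03 ± 0.0372) and Eda2r (0.958 ± 0.296) were lowest and apart from each other. In controls Sesn2 had rank 3 of 10, at 14.0 ± 4.22 CPM per kilobase, where its range overlapped those of Mdm2 and Bax.

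Cdkn1a encodes p21, the cell cycle inhibitor that p53 induces, and its Pkd1 KO values stayed inside the spread of the controls. It had 14.6, 14.7 and 14.3 CPM in Pkd1 KO kidneys, against 21.99, 5.98 and 11.5 CPM in controls. Control 2 was the lowest of the 6 and control 1 the highest. Its log2 fold change was 0.15 ± 0.38, with a 95% interval of −0.71 to 1.00 (adjusted p = 0.769), and it turned to −0.24 without control 2 (adjusted p = 0.410) and was 0.71 without control 1 (adjusted p = 0.0805).

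Cdkn2a, whose ARF product holds Mdm2 back, had at most 3 reads in a library and was not tested. Trp73, Ptprv and Trp53cor1, with at most 3, 12 and 5 reads in a library, were not tested either. Nor was Sco2, which had 0 reads in every library.

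Across 4 further lists of p53 targets, 49 of 52 genes were tested, 8 were called higher, 10 lower and 31 not called, with a median log2 fold change of 0.078. For all tested genes the called share was 46.9%, 22.7% higher and 24.2% lower, and their median was 0.026. With the offsets 8 were higher and 8 lower, beside 17.1% and 17.4% of all genes. The count of increases was 5, 4 and 3 without KO 1, KO 2 and KO 3, and 13 with upper-quartile scaling, where 8 were lower. DESeq2 called 7 higher and 13 lower.

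Of 14 tested genes of cell cycle arrest and DNA repair, 3 rose and 3 fell, beside 22.7% and 24.2% of all tested genes. With the offsets 2 were called higher and 3 lower. Ddb2, which recognises ultraviolet damage, rose (1.17 ± 0.18, adjusted p = 0.00267; offsets 0.68). Rrm2b, a ribonucleotide reductase subunit, rose with a weak call (0.46 ± 0.16, adjusted p = 0.0446; offsets 0.20, adjusted p = 0.316). Its adjusted p was 0.147 and 0.0811 without controls 1 and 2, and 0.163, 0.0971 and 0.0948 without KO 1, KO 2 and KO 3. The nucleotide excision repair genes Xpc (−1.20 ± 0.25, adjusted p = 0.00610; offsets −0.69) and Ercc5 (−0.88 ± 0.18, adjusted p = 0.00566; offsets −0.79) fell. Fbxw7, which marks cyclin E for degradation, fell (−0.65 ± 0.20, adjusted p = 0.0251), but had an adjusted p of 0.0739 without control 1 and 0.0757, 0.0854 and 0.0739 without KO 1, KO 2 and KO 3. The other increase was Gtse1 (1.14 ± 0.32, adjusted p = 0.0179), named after its values were seen, with an adjusted p of 0.0705, 0.0794 and 0.0629 without control 1, KO 2 and KO 3.

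Of 12 apoptosis genes, 2 rose and 1 fell, beside 22.7% and 24.2% of all tested genes. With the offsets 3 were called higher and 0 lower in edgeR's test. Siva1 (0.74 ± 0.20, adjusted p = 0.0156; offsets 0.58) and the desmosomal p53 target Perp (0.55 ± 0.16, adjusted p = 0.0207; offsets 0.09, adjusted p = 0.563) rose. Bbc3, the BH3-only protein PUMA, fell (−0.73 ± 0.24, adjusted p = 0.0342; offsets −0.035, adjusted p = 0.923). These calls depended on single libraries in edgeR's test. Siva1 had an adjusted p of 0.0712, 0.0676 and 0.0612 without control 1, KO 2 and KO 3. Perp had 0.0929, 0.0771, 0.0768 and 0.0532 without control 1, KO 1, KO 2 and KO 3. Bbc3 had 0.0516, 0.0659, 0.122 and 0.0911 without control 2, KO 1, KO 2 and KO 3. Pmaip1 (NOXA), named after its values were seen, stood at 0.44 ± 0.23 (adjusted p = 0.135) and at −0.28 with the offsets.

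Of 14 tested genes of metabolism, redox control and autophagy, 1 rose and 5 fell, beside 22.7% and 24.2% of all tested genes. With the offsets 1 was called higher and 4 lower. Dram1, a lysosomal regulator of autophagy, rose (0.55 ± 0.15, adjusted p = 0.0164; offsets 0.22, adjusted p = 0.237), with an adjusted p of 0.0840, 0.0585 and 0.0762 without control 1, KO 1 and KO 3. The autophagy kinase Ulk1 (−1.10 ± 0.21, adjusted p = 0.00427; offsets −0.054, adjusted p = 0.763), adenylate kinase Ak1 (−0.96 ± 0.17, adjusted p = 0.00343; offsets −0.87) and the lipid transfer gene Pltp (−0.90 ± 0.20, adjusted p = 0.00679; offsets −0.60) fell. Pltp stood at −0.21 (adjusted p = 0.345) when the strand columns were summed. The other sestrin genes, named after their values were seen, were Sesn3, which fell (−0.65 ± 0.18, adjusted p = 0.0182; offsets −0.13, adjusted p = 0.434; adjusted p = 0.0723 and 0.0833 without KO 1 and KO 2), and Sesn1 (0.16 ± 0.15, adjusted p = 0.407).

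Of 9 tested targets with other roles, 2 rose and 1 fell, beside 22.7% and 24.2% of all tested genes. With the offsets the counts were also 2 and 1. Psrc1, a microtubule-associated protein, had 2.28, 4.08 and 3.08 CPM in Pkd1 KO kidneys, against 0.855, 0.502 and 0.696 CPM in controls (2.21 ± 0.31, adjusted p = 0.00249; offsets 2.31). The non-coding RNA Pvt1 rose (1.22 ± 0.21, adjusted p = 0.00343; offsets 1.32). The tetraspanin gene Cd82 had 38.3, 33.7 and 42.1 CPM in Pkd1 KO kidneys, against 82.5, 95.6 and 83.2 CPM in controls (−1.19 ± 0.14, adjusted p = 0.00234; offsets −0.94). These 3 calls held in all 15 alternatives.

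**Figure D4:**
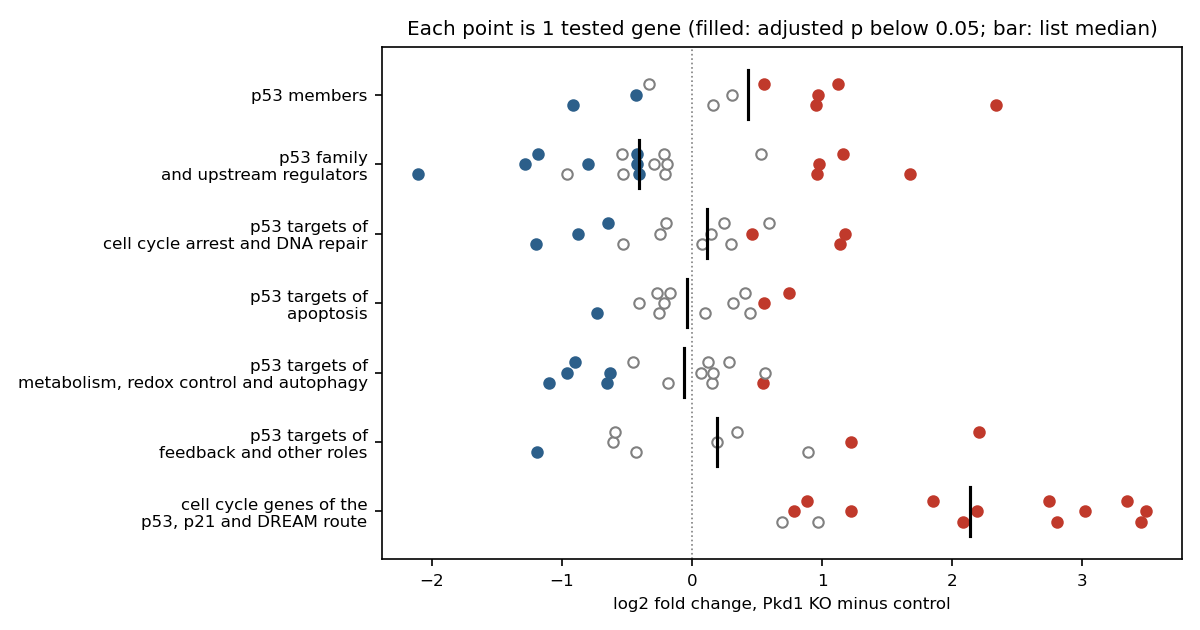
Log2 fold change, Pkd1 KO minus control, of each tested gene in the members' list and 6 further lists, filled red or blue where higher or lower at an adjusted p below 0.05, with black bars for list medians. The p53 target lists straddle 0, and the cell cycle list lies wholly above it.

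Of 19 tested family members and upstream regulators, 4 rose and 7 fell, beside 22.7% and 24.2% of all tested genes, with a median of −0.41. With the offsets 5 were called higher and 5 lower, and the median was −0.14. The checkpoint kinase genes Chek1 (1.68 ± 0.23, adjusted p = 0.00245; offsets 1.14) and Chek2 (0.97 ± 0.19, adjusted p = 0.00451; offsets 0.62) rose, as did Rpl5 (1.16 ± 0.24, adjusted p = 0.00568; offsets 0.70), a ribosomal protein whose free form binds Mdm2. The kinase genes Hipk2 (−2.10 ± 0.40, adjusted p = 0.00418; offsets −1.14) and Atm (−1.29 ± 0.34, adjusted p = 0.0139; offsets −1.17) and the acetyltransferase gene Ep300 (−1.19 ± 0.26, adjusted p = 0.00718; offsets −0.18, adjusted p = 0.267) fell. Atm was at −0.79 without control 2, where it was still called, and its adjusted p was 0.0631 without KO 2. Upper-quartile scaling called 5 of the 19 higher and 4 lower. The decreases numbered 4 without control 1, KO 1 or KO 3 and 3 without KO 2. Mdm4, the partner of Mdm2, named after its values were seen, stood at −0.21 ± 0.15 (adjusted p = 0.261) and at 0.14 with the offsets.

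Genes that p53 is known to lower through p21 and the DREAM repressor complex were mostly higher in Pkd1 KO kidneys. Of 14 tested, 12 were called higher and 0 lower in edgeR's test, beside 22.7% and 24.2% of all tested genes. There were 0 lower also at an unadjusted p below 0.05, where 5092 of all 18273 tested genes were lower, and in DESeq2. The median was 2.14, and 2.05 with the offsets, where 13 were called higher, beside 17.1% of all genes. The mitotic kinase Cdk1 had 11.5, 22.3 and 15.97 CPM in Pkd1 KO kidneys, against 1.77, 0.951 and 1.84 CPM in controls (3.45 ± 0.33, adjusted p = 0.00177). Bub1 (3.34 ± 0.30, adjusted p = 0.00167) and Ccnb1 (3.02 ± 0.34, adjusted p = 0.00229) rose similarly.

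The profiles nearest to that of Trp53 over the 6 samples were those of Slc25a37, Tbc1d12 and Metap2, with root-mean-square differences of 0.017, 0.023 and 0.026 in mean-centred log2 CPM. Those nearest to Mdm2 were Dnajc9, Abhd13 and Pgk1, at 0.042, 0.046 and 0.046. For Slc25a37 that profile was 26.5, 26.2 and 24.5 CPM in Pkd1 KO kidneys and 34.4, 39.4 and 29.4 CPM in controls, and for Dnajc9 it was 26.7, 26.4 and 26.7 CPM in Pkd1 KO kidneys and 20.996, 15.8 and 25.8 CPM in controls.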

How the data were processed

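RNA from 6 whole mouse kidneys was sequenced as poly-A, random-primed libraries, per the labels' protocols. The authors deposited raw gene counts in 7 tables, since control 1 had 2 runs, which were summed here. Per the submitters' processing notes, the tools were FastQC 0.11.8, STAR 2.6.1e and cutadapt 4.0 and the build GRCm39. The first count column, not split by strand, was used, and the 4 lines naming no gene (25.3 to 26.3% of the total in Pkd1 KO libraries, 22.9 to 23.8% in controls) were left out. Symbols, GC content and exon length came from GENCODE M21 by gene identifier, for 52073 of 56923.

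Genes were filtered with filterByExpr, scaled by TMM and tested with edgeR 4.0.16 (quasi-likelihood F test, Benjamini-Hochberg adjustment over all tested genes, 0.05), with the SE taken as the log2 fold change over the root of F. DESeq2 1.42.0, other scalings, no filter, offsets, a replicate block, strand sums, a single run and leaving out each library gave 15 alternatives. Offsets were loess fits (span 0.3) of log2 CPM (prior count 2) on GC content and exon length jointly, relative to the mean over libraries. The common biological coefficient of variation was 21.4%. The code was tested on simulated data.

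The members and lists were chosen with earlier results of these data known. The text names all 10 members, Cdkn1a and Pkd1, per list up to 3 called genes with the largest change in each direction, provided their mean log2 CPM was 0 or more, and the 3 genes nearest to Trp53 and Mdm2 with a mean of 2 or more. Others are said to have been named after their values were seen. The 87 entries of 6 pathway lists all matched an identifier, and 82 were tested.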

Additional observations from a re-analysis of the deposited data

How the results depend on the processing

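Over 35 of the named genes and 15 alternatives, 455 of the values kept their direction and side of the threshold. Another 64 lost the call, 2 gained it and 4 changed sign. The 35 leave out Pkd1, cell type markers, the genes nearest to Trp53 and Mdm2, and genes named after their values were seen. Among these 35 the sign changed for Zmat3 with the offsets (0.25) and with the replicate block and offsets (0.25). It also changed for Cdkn1a without control 2 (−0.24, up to 0.71 with other single libraries left out) and for Bbc3 with the block and offsets (0.0036). Outside the 35 it changed in both offset fits for Mdm4 (0.14 in each) and Pmaip1 (−0.28, and −0.25 with the block). In each case the cause was not tested. Of all genes 8579 were called, 5401 with the block and offsets and 5071 to 10318 when 1 library was left out (5071 without KO 2, 5871 without KO 3). Of the 10 members 7 were called, 3 with the offsets, 3 with the block and offsets, and 4 (without KO 2) to 9 (without control 3) with 1 library left out. Those called higher numbered 5, then 3 with the offsets, 3 with the block and offsets, and 3 (without KO 2) to 6 (without control 3). Those called lower numbered 2, then 1 with upper-quartile scaling, 1 with no filter, 0 with the offsets, 1 with the replicate block, 0 with the block and offsets, and 1 without each library but control 3, where it was 3. Other pathway genes called numbered 41, and 30 to 49 with 1 library left out. The labels give no pairing of the samples. Same-numbered deviations correlated at 0.038, −0.084 and −0.029, and unlike-numbered ones at −0.099 to 0.097. With 3 samples in each group these values cannot settle whether the replicate numbers pair samples. With the replicate block 7397 genes, 6 members and 38 pathway genes were called. Among the 35 genes the block ended the calls of Trp53 (−0.42, adjusted p = 0.0727), Rrm2b (adjusted p = 0.0634), Fbxw7 (0.0510) and Bbc3 (0.0758). The block also ended the call of Wrap53 (adjusted p = 0.0880), which is outside these 35. Among the members depth limits Eda2r most, with 52 to 64 reads in the controls. Some other named genes had fewer reads in controls 1, 2 and 3. These include Bub1 (17, 16 and 16), Psrc1 (44, 29 and 31) and Ccnb1 (52, 27 and 40).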
